A study of Homo sapiens with 120 samples.

Results

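Gene expression in arsenite-treated U2OS cells was compared between 16 h and 4 h of treatment, so that each value sets a late level against an early level under the same agent. U2OS is an established human osteosarcoma line. The libraries were those labelled Parental with arsenite at 0.05 mM for 16 h (3 libraries) and for 4 h (3 libraries), which makes 6 of the 120 libraries in the series, and all genes in the table were considered. Parental cells do not express the study's construct. The series also contains Dmr-PERK cells, which are U2OS with a stable construct in which a ligand-dimerised domain is fused to mouse PERK's kinase domain. That ligand was absent from every well of the groups compared here, while wells that held it entered the fit shared by all 120 libraries. Wells of 24-well plates were treated and collected in triplicate, and the labels do not state whether replicate wells were independent cultures, so p-values measure the spread between wells, which may be technical. Beside the main comparison stand Parental wells left untreated and collected at 4 h and 16 h (3 each), and Dmr-PERK wells with the same arsenite dose at 4 h and 16 h (3 each).

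Arsenite is a trivalent arsenic compound that binds closely spaced thiols in proteins and raises reactive oxygen species. Damaged proteins free the transcription factor HSF1, which drives chaperone genes, while oxidised KEAP1 releases NRF2, which drives antioxidant and glutathione genes, and displaced zinc activates MTF1, which drives metallothioneins. Arsenite also activates the kinase HRI, which phosphorylates the translation factor eIF2α; general protein synthesis then falls while ATF4 and CHOP (encoded by DDIT3) are made, which is the integrated stress response (ISR).

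Levels are given in CPM, the authors' estimated counts per gene expressed at a common library size after TMM scaling. They are relative, since no spike-in was used here: a gene can gain CPM because others lost RNA, and in bulk wells fewer cells and less RNA per cell cannot be told apart. The 6 libraries held 19797330 to 29029975 counts. Replicates correlated at 0.9975 to 0.9983 on log2 CPM, and replicate pairs differed by more than sampling noise. From 4 h to 16 h the share of counts from mitochondrial genes went from 4.81-4.83% to 5.68-5.86%, the share of the 10 highest genes from 8.77-8.82% to 11.3-11.8%, and the number of genes at 1 CPM or more from 16582-16668 to 17888-18173. Of 8 osteoblast markers, 7 were at 1 CPM or more at both times, with a summed level of 5900-5960 CPM at 4 h and 4600-4650 CPM at 16 h. Most of that sum came from COL1A1, VIM and SPARC (2900, 2070 and 929 CPM at 4 h). Of 12 epithelial markers, 7 were at 1 CPM or more at 4 h and 6 at 16 h, with summed levels of 755-758 and 618-633 CPM. SP7, a defining osteoblast factor, was at 0 at 4 h and at 0.0677 CPM at 16 h. Of the libraries in the series, 4 stood apart from their replicates: the 3 of Parental arsenite at 24 h and replicate 3 of Dmr-PERK arsenite at 4 h. None of these is among the 6 compared, but the last enters the Dmr-PERK comparison, and all 4 enter the shared estimate of spread.

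Of 26998 genes tested, edgeR called 18923 at an adjusted p under 0.05 between 16 h and 4 h of arsenite, which is 70.1%. Of these, 9463 were higher (35.1% of genes tested) and 9460 were lower (35%). Counts of list members given below are to be read beside these shares. At least a 2-fold difference was called for 5880 higher (21.8%) and 3877 lower genes (14.4%), and at least an 8-fold difference for 1681 higher and 197 lower genes. That lean towards rises among the large changes depends on the scale, since limma on log2(TPM + 1) called 2462 higher and 2801 lower at 2-fold. In 19556 genes (72.4%) the 3 libraries at 16 h did not overlap the 3 at 4 h. In untreated Parental wells over the same hours, edgeR called 11146 genes (41.3%), 5569 higher (20.6%) and 5577 lower (20.7%), of which 821 (3.04%) and 1170 (4.33%) changed at least 2-fold. When the untreated change was taken from the arsenite change, 15863 genes (58.8%) were called, 7176 higher (26.6%) and 8687 lower (32.2%), and with DESeq2's size factors 8255 were higher and 7695 lower. That scaling moved the median log2 change of all genes between 16 h and 4 h of arsenite from 0.03 to 0.15, so small changes below are read against a shift of that size.

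**Figure D1:**
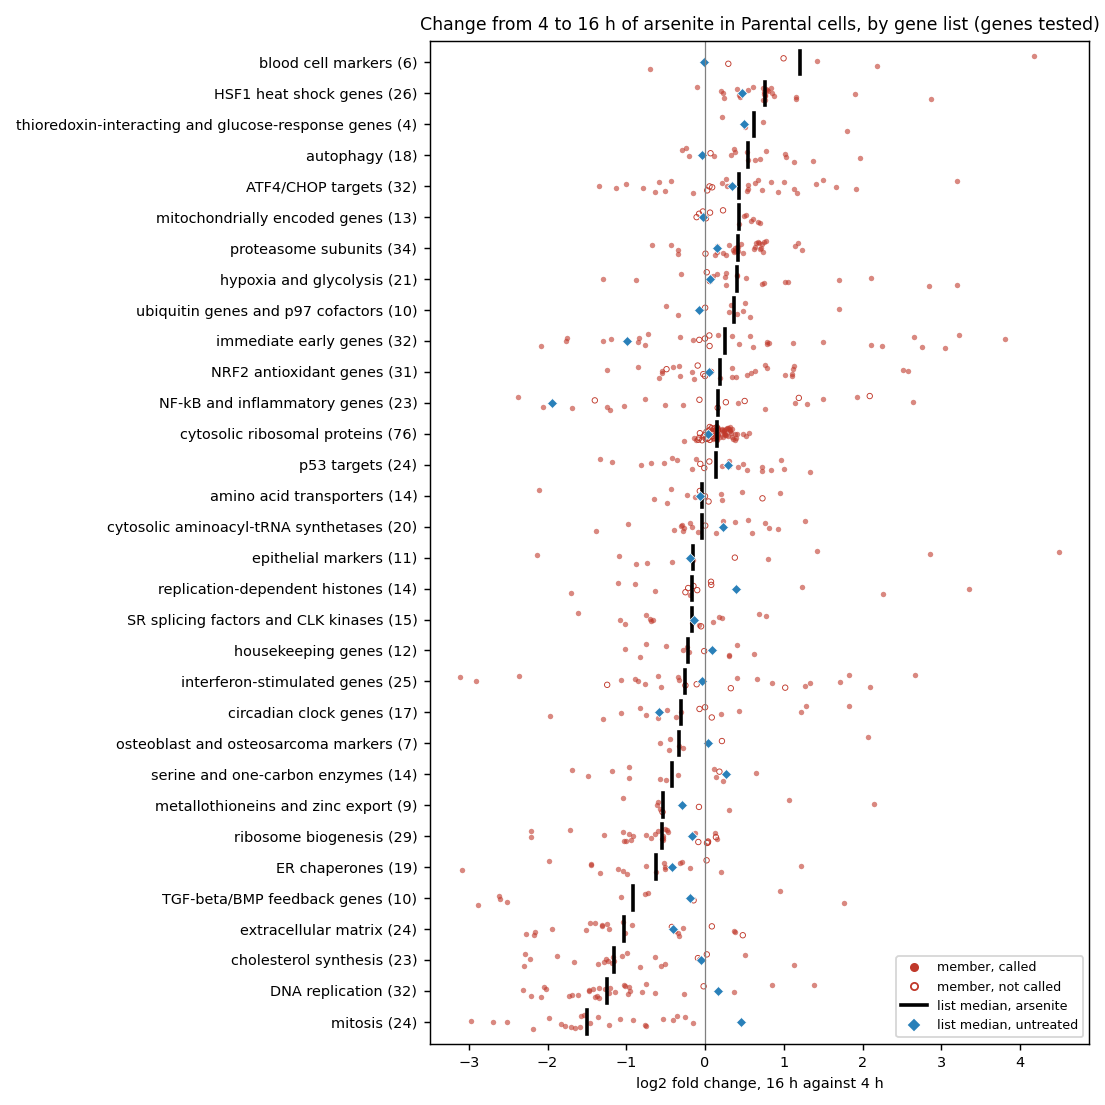
Log2 fold change between 16 h and 4 h of arsenite in Parental cells for each tested member of 32 gene lists (red points, filled where edgeR called the gene), with the list's median (black bar) and the median of the same list in untreated wells (blue diamond); the number tested stands in brackets. Mitosis and DNA replication genes lie lowest, with medians of -1.50 and -1.25 under arsenite and 0.46 and 0.17 in untreated wells, and heat shock genes lie near the top with a median of 0.76.

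Most heat shock genes, the chaperones and co-chaperones driven by HSF1, rose between 4 h and 16 h of arsenite. Of 26 tested, 25 were higher at 16 h and 1 lower, with a median log2 change of 0.76 against 0.03 for all genes. HSPA1A (chr6:31815464-31817946), the main inducible HSP70, stood at 16790, 16609 and 16898 CPM in the 3 libraries at 4 h and at 27891, 27043 and 30230 CPM at 16 h. The groups did not overlap, and the log2 change was 0.76 ± 0.08 (SE; edgeR adjusted p = 5.81e-14, n = 3 and 3). Untreated wells held a mean of 90.7 CPM at 4 h and 213 CPM at 16 h, so the log2 change in untreated wells (1.24) was larger than under arsenite and the difference of the 2 changes was -0.48 (edgeR adjusted p = 0.000552). HSPA1A and its near-identical neighbour HSPA1B share most of their sequence, and how reads were split between them is uncertain; together they took 2.62-2.64% of all counts at 4 h and 4.11-4.63% at 16 h. The RefSeq promoter of HSPA1A (GRCh38.p14, chr6:31815293-31815592, plus strand) is shown because it carries the factor's binding letters close to the start of the gene; capitals mark the match to the heat shock element.
HSPA1A: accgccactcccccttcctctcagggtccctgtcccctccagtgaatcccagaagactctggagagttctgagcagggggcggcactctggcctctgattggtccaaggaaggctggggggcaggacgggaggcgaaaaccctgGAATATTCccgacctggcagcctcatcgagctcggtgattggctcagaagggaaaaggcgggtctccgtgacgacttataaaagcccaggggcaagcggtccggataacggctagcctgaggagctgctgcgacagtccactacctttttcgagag
The element was searched as GAANNTTC or TTCNNGAA on both strands, and 10 of the 24 heat shock genes with a promoter in the table held it (41.7%), against 13.5% of all 35116 promoters of the same length. A match describes letters in this window and is not a measured site.

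The members of the heat shock list did not move by the same amount. CRYAB (chr11:111908565-111923722), a small heat shock protein that holds unfolded proteins, rose from 1118, 1100 and 1135 CPM to 4080, 4276 and 4202 CPM, a log2 change of 1.91 ± 0.05. HSPA1L, a further HSP70 gene of the same cluster, rose from 21, 21.4 and 21.2 CPM to 151, 145 and 169 CPM (2.87 ± 0.07). HSP90AB1, the constitutive HSP90, rose from 7570, 7569 and 7815 CPM to 12827, 13015 and 13125 CPM (0.76 ± 0.03). In each of these genes all libraries at 16 h lay above all at 4 h. HSPH1, an HSP110 exchange factor, rose less (0.44 ± 0.06). DNAJB1, the HSP40 partner of HSP70, and BAG3, which couples HSP70 to autophagy, rose by 0.23 ± 0.05 and 0.21 ± 0.05 and were not called on the TPM scale, where their changes were 0.06 and 0.03. SERPINH1, a collagen chaperone of the ER named here after its value was seen, was the 1 member that fell (-0.10 ± 0.03), a call lost with DESeq2's size factors and with DESeq2. In untreated wells 22 of the 26 rose (median 0.47), and the arsenite change less the untreated change was called higher for 14 and lower for 6.

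The course between these times differed too, as the plot of levels by time shows. HSPA1A stood at a mean of 3405 CPM at 2 h, 16333 CPM at 8 h and 48224 CPM at 24 h, so its level at 8 h lay beside that at 4 h and the gain came later. CRYAB instead passed 333, 2068 and 8330 CPM at 2, 8 and 24 h. Parental arsenite means at 24 h, here and below, rest on the 3 libraries that stood apart from their replicates. There HSPA1A and HSPA1B together took 7.83, 7.76 and 5.51% of counts.

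**Figure D2:**
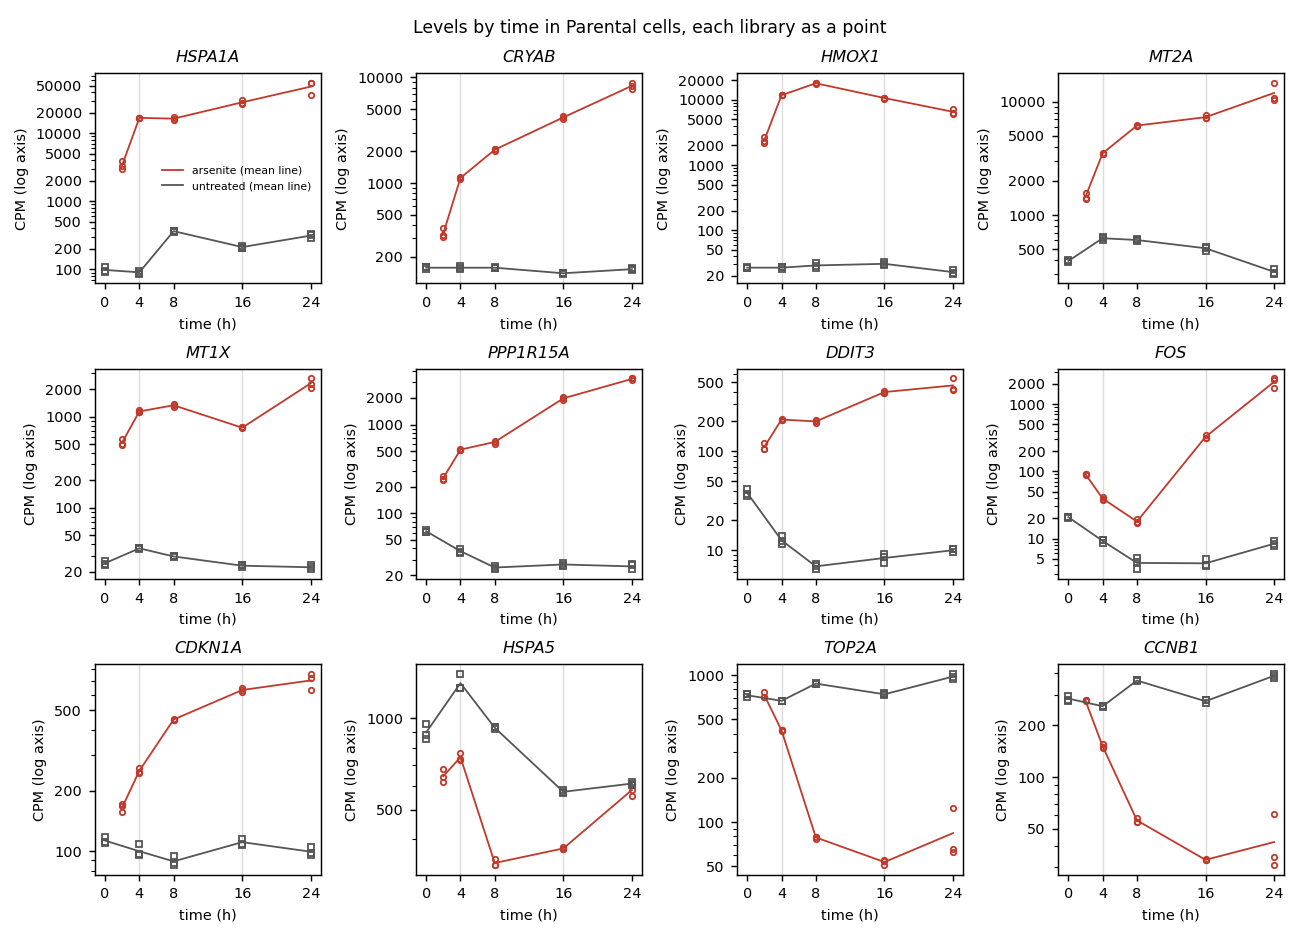
CPM (log axis) against time for 12 genes in Parental cells with arsenite (red circles) and untreated (grey squares), each library a point and the line through the means; vertical lines mark 4 h and 16 h. HSPA1A, CRYAB, PPP1R15A and FOS are higher at 16 h than at 4 h, HMOX1 peaks at 8 h with a mean of 17937 CPM, and TOP2A and CCNB1 fall under arsenite, with log2 differences from the untreated change of -3.12 and -2.29.

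Metal-responsive genes split. MT2A (chr16:56608199-56609497), a zinc- and arsenic-binding metallothionein, stood at 3562, 3489 and 3489 CPM at 4 h and at 7143, 7659 and 7169 CPM at 16 h, with no overlap and a log2 change of 1.06 ± 0.06 (edgeR adjusted p = 7.61e-30). MT1X (chr16:56682424-56684196), a relative in the same cluster, went the other way, from 1180, 1127 and 1126 CPM to 743, 768 and 764 CPM (-0.59 ± 0.05, edgeR adjusted p = 3.39e-19). SLC30A1, the zinc exporter of the plasma membrane, fell from 915, 915 and 931 CPM to 449, 443 and 453 CPM (-1.04 ± 0.04). All 3 genes were still above untreated wells at 16 h, which held means of 509, 23.2 and 92.4 CPM. Of 9 metallothionein and zinc export genes tested, 3 were higher (MT1E, MT1M and MT2A) and 4 lower (MT1F, MT1H, MT1X and SLC30A1), with a median of -0.54. In untreated wells 1 rose and 3 fell, and the difference of the changes was called higher for 2 and lower for 2. Metallothionein genes are close copies of each other, so the share of reads given to each is uncertain. The promoters of MT2A (chr16:56608334-56608633) and MT1X (chr16:56682220-56682519), both on the plus strand of GRCh38.p14 from RefSeq, are set side by side because the genes moved in opposite directions; capitals mark matches to the metal response element.
MT2A: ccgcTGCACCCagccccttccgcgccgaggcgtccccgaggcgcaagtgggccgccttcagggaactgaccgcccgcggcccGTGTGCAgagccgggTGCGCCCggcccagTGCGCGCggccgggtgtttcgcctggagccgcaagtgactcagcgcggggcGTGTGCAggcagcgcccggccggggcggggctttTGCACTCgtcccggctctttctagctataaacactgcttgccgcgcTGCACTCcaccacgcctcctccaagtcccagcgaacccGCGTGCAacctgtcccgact
MT1X: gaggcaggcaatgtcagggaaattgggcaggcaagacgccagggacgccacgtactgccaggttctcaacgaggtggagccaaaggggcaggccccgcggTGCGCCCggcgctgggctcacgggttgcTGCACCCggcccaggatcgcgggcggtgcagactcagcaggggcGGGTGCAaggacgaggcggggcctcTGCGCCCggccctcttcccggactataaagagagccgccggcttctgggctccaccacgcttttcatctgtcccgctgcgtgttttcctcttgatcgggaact
Searched as TGCACNC or TGCGCNC on both strands, the element began at 8 places in the MT2A window and at 4 in that of MT1X. All 5 promoters of the list found in the table held it, against 29.6% of all promoters.

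NRF2 target genes were mixed: 16 of 31 tested rose and 10 fell, with a median of 0.19. HMOX1 (chr22:35380361-35394214), which degrades haem, held 11869, 11796 and 11662 CPM at 4 h and 10676, 10838 and 10454 CPM at 16 h, against a mean of 26.8 CPM in untreated wells at 4 h. The groups did not overlap, but the difference was small (-0.14 ± 0.06, edgeR adjusted p = 0.0258), was not called with DESeq2's size factors (-0.02, adjusted p = 0.754), and lost its call without replicate 1 or 2 at 4 h or replicate 3 at 16 h. Its mean passed 17937 CPM at 8 h. SQSTM1, the autophagy receptor p62, rose from 711, 698 and 702 CPM to 1534, 1573 and 1515 CPM (1.13 ± 0.04). FTL, the ferritin light chain that stores iron, rose from 1530, 1501 and 1562 CPM to 3231, 3380 and 3232 CPM (1.10 ± 0.05), and OSGIN1, an oxidative stress-induced growth inhibitor, rose by 1.10 ± 0.05. Smaller log2 changes were 0.19 ± 0.04 for GCLM, a subunit of the first enzyme of glutathione synthesis, 0.34 ± 0.04 for SRXN1 (sulfiredoxin) and 0.40 ± 0.06 for TXNRD1 (thioredoxin reductase). SLC7A11, the cystine importer, held 313, 315 and 315 CPM at 4 h and 322, 316 and 305 CPM at 16 h with overlapping groups, and its mean was 550 CPM at 8 h. The antioxidant response element, searched as TGACNNNGC on both strands, was in 5 of 23 promoters of this list (21.7%) against 13.3% of all promoters. The metal response element was in 12 of these 23 (52.2%, against 29.6% of all). The antioxidant element was in 4 of the 5 promoters of the metallothionein list (80%), so neither element was particular to its list.

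Genes of the integrated stress response also parted. Of 32 ATF4 and CHOP targets tested, 20 rose and 9 fell, with a median of 0.43. In untreated wells 17 rose and 10 fell (median 0.34), and the difference of the changes was called higher for 16 and lower for 14. PPP1R15A (chr19:48872392-48876057), which encodes GADD34, the phosphatase subunit that reverses eIF2α phosphorylation, rose from 513, 517 and 535 CPM to 1916, 1985 and 2033 CPM (1.92 ± 0.05, edgeR adjusted p = 1.51e-55), and reached a mean of 3278 CPM at 24 h. DDIT3, which encodes CHOP, rose from 213, 206 and 209 CPM to 390, 408 and 391 CPM (0.92 ± 0.06), and ATF4 itself from 632, 631 and 656 CPM to 1048, 1101 and 1083 CPM (0.75 ± 0.03). In all 3 of these genes every library at 16 h lay above every library at 4 h. TRIB3, a pseudokinase induced by CHOP, rose by 0.53 ± 0.06. KLHL24, a ubiquitin ligase adaptor, rose from 13.9, 14.1 and 14.6 CPM to 129, 133 and 131 CPM (3.20 ± 0.10), and CTH, which makes cysteine from cystathionine, rose by 1.41 ± 0.05. CHAC1, which degrades glutathione, fell from 109, 102 and 107 CPM to 75.3, 79 and 69.2 CPM (-0.51 ± 0.07), while in untreated wells it went from 3.33 to 13.6 CPM. ASNS, asparagine synthetase, held 181, 180 and 184 CPM at 4 h and 181, 192 and 181 CPM at 16 h; the groups overlapped and the direction of its change depended on the scaling. ATF3 stood at 268, 266 and 289 CPM and then 243, 247 and 249 CPM (-0.15 ± 0.06), a call lost with DESeq2's size factors and without replicate 3 at 4 h. The amino acid response element, searched as TGATGNAAN on both strands, was in 6 of 26 promoters of the list (23.1%) against 3.61% of all promoters.

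The amino acid arms of the same response moved in both directions, where 35.1% of all genes tested rose and 35% fell. Of 14 serine and one-carbon enzymes, 5 rose and 8 fell, with a median of -0.42: ALDH18A1, the first enzyme of proline synthesis, fell by 1.69 on the log2 scale, and MTHFD1 and TYMS, which supply and use folate units for nucleotides, fell by 1.49 and 0.97. Of 20 cytosolic aminoacyl-tRNA synthetases, 9 rose and 10 fell (median -0.04), among them WARS at 1.27 ± 0.05, GARS at 0.93 ± 0.04 and QARS at -0.98 ± 0.04. Among the 14 tested transporters of amino acids, 4 were called higher and 6 lower (median -0.03, and 0.09 with DESeq2's size factors), with SLC38A2, a glutamine transporter, at 0.95 ± 0.05, SLC7A1, an arginine transporter, at -0.65 ± 0.05 and SLC7A6 at -2.11 ± 0.06.

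Most protein degradation genes rose. Of 34 proteasome subunits tested, 29 rose and 4 fell, with a median of 0.42. In untreated wells 27 rose (median 0.15), and the difference of the changes was called higher for 24. PSMD2, a base subunit of the regulatory particle, rose from 537, 554 and 570 CPM to 1224, 1205 and 1230 CPM (1.14 ± 0.04), PSMB7, which carries trypsin-like activity, by 1.23 ± 0.04, and PSMD12 by 1.18 ± 0.05. The 4 that fell were PSMA3, PSMB5, PSMD4 and PSMD7, named after their values were seen, at -0.35 to -0.68. Of 10 ubiquitin and p97 genes 7 rose and 2 fell. ZFAND2A, an arsenite-inducible zinc finger protein that binds the proteasome, went from 177, 182 and 175 CPM to 579, 572 and 592 CPM (1.71 ± 0.06). VCP, the p97 ATPase, rose by 0.40 ± 0.03. Of 18 autophagy genes 14 rose and 3 fell (median 0.54). MAP1LC3B, which coats autophagosomes, rose from 316, 324 and 322 CPM to 807, 833 and 839 CPM (1.36 ± 0.03), and ATG2A, a lipid transfer protein, from 29, 30.3 and 28.8 CPM to 114, 117 and 113 CPM (1.96 ± 0.05).

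ER chaperones fell: 16 of 19 tested were lower and 2 higher (CANX and DNAJB9, named after their values were seen), with a median of -0.63. PDIA4, a disulfide isomerase, fell from 93.9, 92.2 and 96.4 CPM to 9.29, 11.8 and 11.8 CPM (-3.09 ± 0.10). HSP90B1 (GRP94) fell by 1.33 on the log2 scale and CALR (calreticulin) by 0.63. HSPA5 (BiP), the main ER chaperone, fell from 732, 731 and 768 CPM to 370, 376 and 371 CPM (-0.998 ± 0.041). The change of HSPA5 was also present in untreated wells, from a mean of 1307 to 572 CPM, and the difference of the 2 changes was 0.19. In untreated wells 17 of the 19 ER chaperones fell, with a median of -0.42. The difference of the changes was called higher for 6 and lower for 9 (median -0.11).

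Immediate early genes, which encode short-lived transcription factors and mRNA decay factors, were a list in which untreated wells mattered. Under arsenite 17 of 32 rose and 11 fell (median 0.25, but -0.04 on log2(TPM + 1)), while in untreated wells 2 rose and 25 fell (median -0.99); the difference of the changes was called higher for 24 and lower for 7. FOS (chr14:75278774-75282230) rose from 39, 37.9 and 41 CPM to 309, 316 and 352 CPM (3.05 ± 0.07, edgeR adjusted p = 3.2e-59). Its course was not monotonic, with means of 90.4 CPM at 2 h, 17.9 CPM at 8 h and 2138 CPM at 24 h. EGR1, a zinc finger factor with a similar course, rose from 89, 84 and 101 CPM to 368, 402 and 407 CPM (2.10 ± 0.12), with a mean of 50.6 CPM at 8 h. ZFP36, which destabilises AU-rich mRNAs, rose from 11.4, 12.5 and 13.6 CPM to 111, 119 and 122 CPM (3.23 ± 0.10). SRF, a factor that drives many of these genes, fell by 1.76 on the log2 scale.

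Of 23 NF-kB and inflammatory genes, 7 rose and 9 fell under arsenite (median 0.16), whereas 21 fell in untreated wells (median -1.95). CXCL8, the neutrophil chemokine interleukin 8, held 4.42, 4.57 and 6.37 CPM at 4 h and 4.95, 6.28 and 7.1 CPM at 16 h of arsenite with overlapping groups, while untreated wells went from a mean of 76.7 CPM to 0.606 CPM. The untreated log2 change was -6.95, and the difference of the 2 changes was 7.21 (edgeR adjusted p = 4.31e-27). IL6, at under 1 CPM with arsenite at both times, went from 3.33 to 0.0922 CPM in untreated wells. NFKB1, NFKB2 and NFKBIE, which encode subunits and an inhibitor of the factor, fell by 2.06, 1.25 and 1.69 on the log2 scale under arsenite.

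Cell division genes fell as a group. All 24 mitosis genes tested were lower at 16 h, with a median of -1.50, while in untreated wells 18 rose; for all 24 the difference of the changes was called lower. TOP2A (chr17:40388516-40417950), the topoisomerase that untangles chromosomes, fell from 421, 421 and 417 CPM to 54.4, 51.2 and 55.1 CPM (-2.97 ± 0.08, edgeR adjusted p = 1.27e-56). KIF23, a kinesin of cytokinesis, fell from 137, 139 and 145 CPM to 21.3, 22.3 and 21.1 CPM (-2.70 ± 0.07), CCNB1, the mitotic cyclin, from 149, 148 and 156 CPM to 33, 33.4 and 32.9 CPM (-2.19 ± 0.07), and DLGAP5 by 1.98. TOP2A means were 728 CPM at 2 h, 78.8 CPM at 8 h and 84.3 CPM at 24 h, so most of the fall had occurred by 8 h. Of 32 DNA replication genes, 28 fell and 3 rose (median -1.25). RRM2, a subunit of ribonucleotide reductase, fell by 2.05, MCM6, a subunit of the replicative helicase, by 2.21, and PCNA, the sliding clamp, from 50, 50.4 and 53.2 CPM to 18.9, 21.1 and 20.2 CPM (-1.35 ± 0.08). The 3 that rose were CCNE1 and CCNE2, the cyclins E of the G1/S step, and GINS3; CCNE1 went from 31.6, 30.9 and 31.2 CPM to 80.9, 78 and 85.8 CPM (1.38 ± 0.05).

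Among 24 p53 targets, 12 rose and 9 fell (median 0.14). In untreated wells 17 rose and 4 fell (median 0.29), and the difference of the changes was called higher for 7 and lower for 12 (median -0.25). CDKN1A (chr6:36676460-36687339), which encodes the CDK inhibitor p21, rose from 248, 245 and 259 CPM to 618, 648 and 631 CPM (1.33 ± 0.04), and MDM2, the ubiquitin ligase of p53, from 148, 153 and 152 CPM to 246, 258 and 243 CPM (0.73 ± 0.04). PLK3 fell by 1.19. Of 14 replication-dependent histone genes, 3 rose and 5 fell (median -0.17); most of their mRNA lacks a poly(A) tail, and the genes are close copies.

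Biosynthesis and matrix genes fell. Of 23 cholesterol synthesis genes, 18 were lower and 2 higher (among them PMVK, named after its value was seen), with a median of -1.16 against -0.05 in untreated wells. DHCR7, the last enzyme of the pathway, fell from 83.5, 82.6 and 86.3 CPM to 21.8, 21.4 and 25.6 CPM (-1.88 ± 0.05), and STARD4, a sterol carrier, fell by 2.28. HMGCS1, an early enzyme, fell by 0.83, near its untreated change of -0.77. INSIG1, the sterol sensor's retention factor, held 13.3, 13.8 and 12.9 CPM at 4 h and 13.4, 13.2 and 14.1 CPM at 16 h. Of 24 extracellular matrix genes, 19 fell and 2 rose (COL6A1 and COL6A2), with a median of -1.03. In untreated wells 20 of the 24 also fell (median -0.41), and the difference of the changes was called lower for 16 and higher for 5. COL12A1, a fibril-associated collagen, fell from 672, 659 and 667 CPM to 168, 172 and 178 CPM (-1.95 ± 0.05), and COL3A1 from 184, 194 and 193 CPM to 40.9, 42.2 and 43.6 CPM (-2.17 ± 0.07). Of 10 TGF-beta and BMP feedback genes 7 fell (6 in untreated wells), among them ID1 and ID3, inhibitors of basic helix-loop-helix factors (-2.89 ± 0.09 and -2.51 ± 0.08), while ID2, of the same family, rose from 4.82, 5.44 and 5.32 CPM to 16.5, 17.4 and 19 CPM (1.76 ± 0.09).

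Of 21 hypoxia and glycolysis genes, 16 rose and 3 fell (median 0.41), while in untreated wells 9 rose and 6 fell (median 0.06). PFKFB4, which sets the level of the glycolytic activator fructose 2,6-bisphosphate, rose from 13.8, 14.4 and 15.7 CPM to 63.7, 65.9 and 59.8 CPM (2.11 ± 0.06), while its paralog PFKFB3 fell from 124, 126 and 131 CPM to 54.4, 50.7 and 50.5 CPM (-1.29 ± 0.06). ADM, the vasoactive peptide adrenomedullin, rose from 4.11, 4.06 and 3.75 CPM to 36.3, 32.8 and 41.3 CPM (3.20 ± 0.09) and reached a mean of 306 CPM at 24 h.

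Genes of ribosome assembly and genes of the ribosome itself were described by separate lists. Of 29 ribosome biogenesis genes 22 fell and 2 rose (median -0.55), and 19 fell in untreated wells (median -0.16), with LTV1, a small-subunit assembly factor, at -2.21 ± 0.09 and POLR1A, the largest subunit of RNA polymerase I, at -0.91 ± 0.04. Of 76 cytosolic ribosomal proteins 45 rose and 3 fell (median 0.15), but on log2(TPM + 1) 15 rose and 21 fell, so their direction depends on the scale. RPL24 went from 317, 306 and 304 CPM to 435, 453 and 445 CPM (0.52 ± 0.06). Of 13 mitochondrially encoded genes 7 rose (median 0.43), and on log2(TPM + 1) 7 rose and 3 fell; MT-ND2, a subunit of complex I, went from 2553, 2548 and 2616 CPM to 4209, 4242 and 4119 CPM (0.70 ± 0.09).

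Among genes at a mean of 5 CPM or more at 16 h, the largest rises were in RNAs that were absent or nearly absent at 4 h. RPL23AP66 (chr12:12338776-12339254), a processed pseudogene of a ribosomal protein, had 0 counts in all 3 libraries at 4 h and 21.6, 20.5 and 26.6 CPM at 16 h, at least 520-fold higher with a floor of 3 counts over the group. RMRP (chr9:35657751-35658018), the RNA of the mitochondrial RNA-processing endonuclease, had 0 counts at 4 h and 6.43, 7.49 and 7.45 CPM at 16 h, at least 165-fold higher. It is a short RNA made by RNA polymerase III, and DESeq2 did not call it (adjusted p = 0.202). A further 5 of the 10 largest rises were at 0 at 4 h: RP11-1437A8.4, AC009411.2, RP11-357D18.1, RP11-594C13.1 and ABC7-481722F1.2, at least 113- to 225-fold higher. DESeq2 did not call RP11-1437A8.4 or ABC7-481722F1.2 (adjusted p = 0.492 and 0.0593). PIK3R5 (chr17:8878911-8965712), a regulatory subunit of phosphoinositide 3-kinase gamma best known in leukocytes, had 3 counts in all at 4 h and 24.8, 21.5 and 29.2 CPM at 16 h, a ratio of 568 (95% counting interval 194 to 2760). ATP13A4-AS1 (chr3:193553213-193555088), an antisense RNA, had 2 counts at 4 h and 31, 31.5 and 35.1 CPM at 16 h, a ratio of 1120 (95% counting interval 308 to 9220); the strand setting of the counting was not given in the sources used here. CD300C, an immune receptor gene on chromosome 17, went from 0.265, 0.216 and 0.262 CPM to 55.8, 54.4 and 58.9 CPM (7.80 ± 0.17).

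Other RNAs that were low at 4 h were also higher: 1681 of the 26998 genes tested were called at least 8-fold higher at 16 h. Among the 1681 genes called at least 8-fold higher, 35.5% were protein-coding, 30.6% long noncoding and 21.4% pseudogenes by GENCODE 29, where all genes tested had 54.7%, 22.1% and 8.55%. The 197 genes called at least 8-fold lower had a like make-up, with 32%, 25.9% and 26.9%. The median level of the 1681 was 0.0435 CPM at 4 h and 1.02 CPM at 16 h, and 0.0302 CPM in untreated wells at 16 h. The 1681 were chosen for being higher at 16 h, and a gene could pass the expression filter through 1 group alone. Low levels elsewhere therefore partly follow from the choice. A gene lay within 10 kb upstream on the same strand for 21.3% of the 1681 and for 26.9% of all genes tested. A set chosen after the values were seen, 111 genes under 0.5 CPM at 4 h of arsenite and in untreated wells at both times and at 5 CPM or more at 16 h, held 46 protein-coding genes, 35 long noncoding RNAs and 16 pseudogenes. Libraries that this choice did not use show when the 111 rose. At 2 h of arsenite 0 or 1 of the 111 reached 1 CPM, at 8 h 43, 49 and 57 did, and at 24 h 111, 111 and 108 did. In untreated wells at 8 h and 24 h 0 of the 111 reached 1 CPM in every Parental library. Their summed level was 115.4, 126.3 and 138.8 CPM at 8 h and 2307, 2352 and 1476 CPM at 24 h. The lowest is replicate 3. Each library was checked against the mean of its other replicates. At 24 h the SD of log2 CPM was 0.527 for replicate 3. It was 0.287 and 0.284 for replicates 1 and 2, each set against a mean that included replicate 3. Blood cell markers were mixed, with 3 of 6 tested called higher and 1 lower. The summed level of all 10 was 2.78-3.62 CPM at 4 h and 19.1-21.1 CPM at 16 h. Most of the gain was in 1 gene, CD68, a lysosomal glycoprotein, at 0.873 and 15.9 CPM. PTPRC, the defining leukocyte gene, was at 0.99 and 0.62 CPM, and CD3E, LYZ and HBB were at 0 at 4 h and under 0.2 CPM at 16 h.

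**Figure D3:**
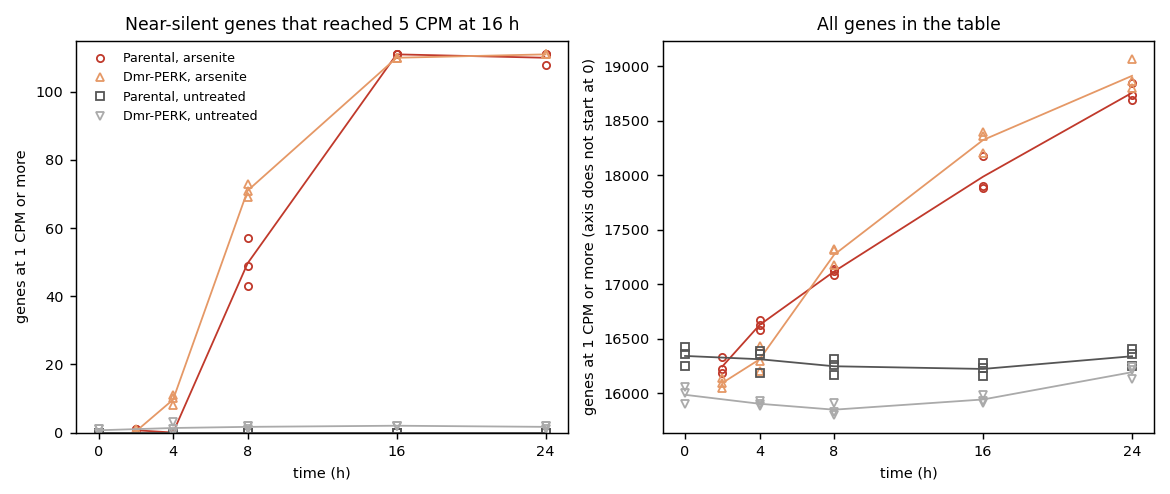
Left, the number of the 111 near-silent genes at 1 CPM or more in each library (points) and the mean of each group (lines) against time, by line and treatment; right, the same count over all genes in the table. With arsenite the left count goes from 0 at 4 h through 43 to 57 at 8 h to 111 at 16 h in Parental cells, values at 4 h and 16 h being fixed by the choice of genes, while Dmr-PERK cells reach 110 at 16 h and Parental untreated wells stay at 0.

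Among genes at a mean of 5 CPM or more at 4 h, the largest falls included the following. H1F0 (chr22:37805093-37807436), the replacement linker histone H1.0, fell from 372, 359 and 354 CPM to 20.8, 19.9 and 18.9 CPM (-4.19 ± 0.17, edgeR adjusted p = 4.17e-40), while untreated wells went from a mean of 873 to 1262 CPM. FAM198B, a Golgi protein gene, fell from 73.6, 70.6 and 65.7 CPM to 3.96, 2.85 and 3.65 CPM (-4.35 ± 0.20), and ARSI, an arylsulfatase, from 28.6, 26.8 and 26.6 CPM to 1.04, 1.29 and 1.83 CPM (-4.30 ± 0.18). AMIGO2, an adhesion protein, fell by 3.93, CXCL14, a chemokine, fell by 3.82 and RSPO3, a WNT-enhancing secreted protein, fell by 3.86 on the log2 scale. For the genes above, FAM198B, ARSI, CXCL14 and RSPO3 also fell in untreated wells, with log2 changes of -0.90, -1.18, -0.88 and -1.004. CLUHP10, a pseudogene at a mean of 1.58 CPM at 2 h, stood at 17.5, 18.3 and 17.9 CPM at 4 h and 1.32, 1.18 and 1.27 CPM at 16 h, so its high level at 4 h was transient. Its sequence is close to that of related pseudogenes and its reads are uncertain.

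The same interval in Dmr-PERK cells shares no library with the Parental comparison. There edgeR called 19509 genes (72.3%), 10173 higher (37.7%) and 9336 lower (34.6%). Across the 26998 genes the log2 changes of the 2 lines correlated at r = 0.817, a description over genes, which are not independent replicates. Of the 18923 genes called in Parental cells, 90.9% had the same sign in Dmr-PERK cells, 15147 (80%) were also called with that sign and 841 were called with the opposite sign. Of the 9757 Parental genes called at 2-fold or more, 87.1% were called with the same sign. All 111 near-silent genes were called higher in Dmr-PERK cells, with a median of 0.228 CPM at 4 h and 9.05 CPM at 16 h.

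**Figure D4:**
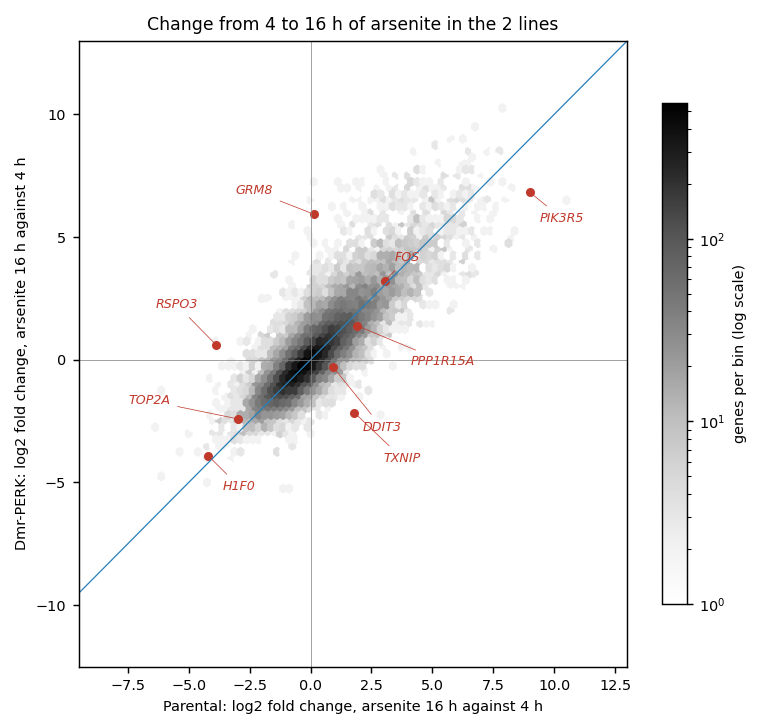
Log2 fold change between 16 h and 4 h of arsenite in Parental cells (horizontal) against that in Dmr-PERK cells (vertical) for 26998 genes, binned with a log grey scale, with 9 named genes in red and the line of equal change in blue. Most bins lie along that line (r = 0.817), while TXNIP, DDIT3, RSPO3 and GRM8 lie off it.

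The size of the change differed between the lines for 9167 genes (34%), 4217 higher (15.6%) and 4950 lower (18.3%) in Parental cells, and by at least 2-fold for 774 (2.87%) and 1248 (4.62%). Of 24 p53 targets, 21 had a change called higher in Parental cells, with a median difference of 0.53 against -0.06 for all genes. CDKN1A went from a mean of 254 to 310 CPM in Dmr-PERK cells, where its log2 change was 0.29, and the difference between the lines was 1.05 (edgeR adjusted p = 4.1e-29). MDM2 went from 156 to 158 CPM there, a difference of 0.71. DDIT3 went from 338 to 275 CPM in Dmr-PERK cells and ATF3 from 691 to 269 CPM, so the differences were 1.22 and 1.21; CHAC1 differed by 1.09. Other lists had the difference called lower in Parental cells. For 29 of 34 proteasome subunits (median difference -0.43) the Parental median was 0.42 and the Dmr-PERK median 0.81. For 16 of 19 ER chaperones (-0.58) the medians were -0.63 and -0.25, so the Parental median fall was the deeper one. For 13 of 20 cytosolic tRNA synthetases (-0.22) the medians were -0.04 and 0.30. HSPA1A rose by 1.12 in Dmr-PERK cells, 0.36 more than in Parental cells, from a mean of 14228 to 30905 CPM. The mitosis genes fell in both lines, 22 of 24 in Dmr-PERK cells with a median of -1.14. Replicate 3 of Dmr-PERK arsenite at 4 h, which stood apart, is part of each of these differences; without the libraries that stood apart 9235 genes differed between the lines.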

How the data were processed

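The series holds 120 RNA-seq libraries of U2OS wells in 40 groups of 3, and 6 libraries form the main comparison. The build GRCh38 and the tools Salmon 0.9.1 and FastQC 0.11.5 were used, per the submitters' processing notes. The authors deposited estimated counts per gene (expected counts: 49.5% of non-zero entries are whole within 1e-05) and a table of TPM, deposited with a floor of 0.063122 and column sums of 1001150 to 1001825. The annotation behind the counting was not given in the sources used here. All columns were matched to 1 sample by name.

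Estimated counts were rounded and fitted with edgeR 4.0.16 in R 4.3.3: TMM scaling, filterByExpr per group at a minimum count of 10 (26998 of 57665 genes kept), and 1 quasi-likelihood fit over 120 libraries, with 80 residual and 12.7 prior degrees of freedom. Benjamini-Hochberg adjustment ran over all genes tested, and an adjusted p under 0.05 was a call. The ± beside a log2 change is an approximate standard error from the fit. The comparisons were arsenite 16 h against 4 h in Parental and in Dmr-PERK cells, the same in untreated Parental wells, and the 2 differences of changes. Library totals ran from 12869311 to 56504690 counts over the series; counting intervals and floors (3 counts) cover counting error only. The steps were tested on simulated data with 200 changed genes among 26998, of which 87% were recovered while 11 unchanged genes were called. The changed genes were at 1 CPM or more, with as many raised as lowered. This simulation cannot test the scaling or the error rate where 70.1% of genes are called, nor genes near 0.

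The gene lists, the panel and the comparison were chosen with earlier results of these data known. Named genes were the 10 largest rises and falls among called genes that averaged 5 CPM or more in the higher group without overlap, each list's 3 members of lowest adjusted p, a panel of 32 genes, and the 5 largest differences in each direction for the 2 differences of changes; the text leaves out values of some. Gene positions and types came from GENCODE 29 (53330 genes matched) and 300-base promoters (250 before to 50 after the start) from RefSeq, GRCh38.p14, where 78 of 100 symbols of the 4 lists searched matched. A total of 1911 genes share their symbol with another. Alternatives tried were DESeq2 1.42.0, its size factors in edgeR, no filter, a replicate block, only the groups compared, limma 3.58.1 on log2(TPM + 1) and log2(TPM + 0.1), leaving out each replicate, and, chosen after seeing the data, leaving out the libraries that stood apart (an SD of log2 CPM from the other replicates over 0.15). Other treatments of the series were not analysed here beyond the shared fit, and some genes are not reported here.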

Additional observations from a re-analysis of the deposited data

Results flagged for a closer look

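The change between 16 h and 4 h of arsenite differed between Parental and Dmr-PERK cells for 9167 genes by the edgeR interaction test. Among panel genes the log2 difference, Parental less Dmr-PERK, was 1.22 for DDIT3, 1.21 for ATF3, 1.09 for CHAC1, 1.05 for CDKN1A and -1.04 for INSIG1, which held 13.3, 13.8 and 12.9 CPM at 4 h and 13.4, 13.2 and 14.1 CPM at 16 h in Parental cells and rose from a mean of 10.5 to 21.9 CPM in Dmr-PERK cells.

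TXNIP, an arrestin-like protein that binds thioredoxin, differed by 3.96. Its Parental level was low, at 0.53, 0.0863 and 0.262 CPM at 4 h and 0.99, 1.18 and 0.862 CPM at 16 h, while Dmr-PERK cells went from a mean of 7.83 to 1.72 CPM.

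GRM8, a glutamate receptor gene, differed by -5.80: it held 2.08, 1.98 and 1.87 CPM and then 2.2, 1.98 and 2.38 CPM in Parental cells and went from a mean of 0.259 to 15.9 CPM in Dmr-PERK cells. COL9A3, a collagen chain, differed by -5.54 (0.0828 to 7.05 CPM in Dmr-PERK cells) and MMD2 by -5.37 (0.031 to 6.08 CPM there).

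The remaining flagged differences rest on a group at or near 0, so their fitted sizes are no bounds. RP11-466H18.1 differed by 12.71, with a mean of 19.1 CPM at 4 h and 0 at 16 h in Dmr-PERK cells and 1.55, 4.62 and 10.3 CPM at 4 h in Parental cells. RP11-311C24.1 differed by 7.0 and also stood at 0 at 16 h in Dmr-PERK cells; on log2(TPM + 1) its difference was 0.18 and not called. AC009411.2 differed by 5.22, with 0 counts at 4 h in Parental cells, and lost its call without replicate 2 of Dmr-PERK arsenite at 4 h. RP11-500M8.7 differed by 5.04 and lost its call under 6 alternatives, among them without replicate 2 of Parental arsenite at 16 h and without replicate 3 of Dmr-PERK arsenite at 4 h. GRTP1-AS1 differed by -6.32, with 0 counts at 4 h in Dmr-PERK cells. RN7SL1, the signal recognition particle RNA, differed by -9.09, but 1 library carried its Parental level at 4 h (12.2, 0 and 0 CPM), and DESeq2 did not call it (adjusted p = 0.115).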

How the results depend on the processing

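The count of genes called between 16 h and 4 h of arsenite ran from 17440 to 19290 over the alternative settings and from 18006 to 18284 when 1 replicate was left out; the count at 2-fold or more ran from 9431 to 9600 without a replicate and dropped to 5263 on log2(TPM + 1), where the pseudocount shrinks changes of low genes. Leaving out 1 replicate gave 9715 to 10510 genes in untreated wells, 14893 to 15634 for the difference from them, 18452 to 19159 in Dmr-PERK cells and 8296 to 8930 for the difference between the lines. Same-numbered Parental arsenite wells correlated at 0.00701, 0.00582 and 0.0286 in their deviations, and a fit with the replicate number as a block called 18933 genes. The values were 0.238, 0.00467 and 0.105 in untreated Parental wells, where differently numbered wells ran from -0.244 to 0.166. In Dmr-PERK arsenite wells they were -0.0897, 0.0212 and -0.15. Such correlations cannot show whether wells were handled in pairs.

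Of 2360 values of named genes under alternatives, 2316 stayed on the same side of the threshold. Of these, 2309 kept their direction and 7 uncalled values near 0 (SLC7A11, INSIG1 and ASNS) changed sign. With the sign kept, 34 lost the call and 3 gained one. The last 7 changed sign and were called in only 1 of the 2 fits: 4 of SLC7A11 and 2 of ASNS gained a call, and 1 of RN7SL1 lost it. SLC7A11 (main value 0.00) came to 0.12 with DESeq2 and with its size factors, 0.44 on log2(TPM + 1) and 0.45 on log2(TPM + 0.1). ASNS came to -0.28 on both TPM scales. RN7SL1's difference between the lines came to 0.59 without replicate 1 of Parental arsenite at 4 h and to -14.12 without replicate 1 at 16 h, the range over the replicates left out. The causes of these changes were not tested, beyond that RN7SL1 was at 0 in the other 2 libraries. The medians of 2 lists, the tRNA synthetases (0.08) and the amino acid transporters (0.09), changed sign with DESeq2's size factors. Depth limits the genes at 0 counts at 4 h, whose fold is only bounded from below and whose difference from untreated wells at 0 could not be tested.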

Other observations

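Several other lists moved in both directions, as did all genes tested (35.1% higher and 35% lower). Of 17 circadian clock genes 5 rose and 9 fell (median -0.31), where untreated wells had 3 higher and 11 lower: CLOCK fell by 1.30 on the log2 scale, PER2 from 45.3, 42.5 and 46 CPM to 11.2, 11.1 and 11.8 CPM, and RORA rose by 1.28. PER2 fell further in untreated wells, by 2.29. Of 25 interferon-stimulated genes 9 rose and 11 fell (median -0.25): BST2, a virion tether, rose from 2.61, 2.63 and 2.27 CPM to 14.3, 16.6 and 16.4 CPM, while OAS3 fell by 2.91. Of 15 SR splicing factors and CLK kinases 5 rose and 9 fell (median -0.17), with SRSF7 and SRSF3 at -1.08 and -1.02, and means of 337 and 469 CPM at 24 h. All 4 thioredoxin-interacting and glucose-response genes rose, at a median of 0.62 (0.49 in untreated wells, where 3 rose and 1 fell), with ARRDC4 at 0.73. For these 4 the difference of the changes was called higher for 1 and was not called for 3.

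Marker and reference genes moved too. Of 7 osteoblast markers tested 5 fell and 1 rose (SPP1, 2.07), and of 12 housekeeping genes 4 rose and 7 fell (median -0.22). ACTB, cytoplasmic actin, went from 6008, 5906 and 6168 CPM to 3382, 3329 and 3493 CPM (-0.82 ± 0.05). Of 11 epithelial markers 6 fell and 4 rose, with KRT8 at -0.42 and CLDN4 at -1.09.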
